A study of Mus musculus with 136 samples.

Results

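The distal nephron is the stretch of kidney tubule in which salt is reclaimed after the proximal tubule and in which the urine is concentrated. Its salt and urea transport was followed here through 8 genes, taken by name: Umod, Slc12a1, Slc12a3, Kcnj1, Scnn1a, Scnn1b, Scnn1g and Slc14a2. They are 8 of 16593 genes on the array and are read by 17 of its 25697 probes. Where a gene had several probes, the brightest over the kidney samples stood for the gene, and the others are given beside it.

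In the thick ascending limb, the sodium-potassium-chloride cotransporter NKCC2, encoded by Slc12a1 and blocked by furosemide, takes up salt without water, while the potassium channel ROMK, encoded by Kcnj1, returns potassium to the lumen. Cells of this segment also secrete uromodulin, the product of Umod and the most abundant protein of normal urine. Further on, the distal convoluted tubule takes up sodium chloride through the thiazide-sensitive cotransporter NCC, encoded by Slc12a3. The connecting tubule and collecting duct take up sodium through the epithelial sodium channel ENaC, whose alpha, beta and gamma subunits are encoded by Scnn1a, Scnn1b and Scnn1g and which aldosterone stimulates. Slc14a2 encodes the UT-A urea transporters of the inner medullary collecting duct and the thin descending limb, which carry urea into the inner medulla. Several of these transporters are known to follow the time of day in the mouse kidney.

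Samples came from females, 9 months old, of the BALB/c nude strain CAnN.Cg-Foxn1nu/Crl, which carry the Foxn1 nude mutation in every group and lack a functional thymus. Mice were given 90 kBq 131I or physiological saline through a vein at 9:00, 12:00 or 15:00 and were killed 24 h later, which gave 6 groups in each of 6 tissues: the cortex and the medulla of the kidney, lungs, liver, thyroid and spleen. Each group held 3 or 4 samples per tissue, from separate animals by the study's methods, for 130 samples in all (71 with 131I, 59 with saline) on 136 Illumina MouseRef-8 arrays, 6 of them repeats. The groups were housed by cage, so that cage and treatment cannot be told apart, and the tissues come from the same animals. Between 34.7% and 51.9% of the probes of an array were detected, that is, were above the negative controls at a detection p under 0.01 (40.9% to 48.0% in the kidney). The number of samples limits the precision of every value below.

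Some samples went against their labels or stood apart. In the cortex, saline 9:00 replicate 4 held Slc14a2 at 9.33, whereas the other 9 saline samples of the cortex lay at 4.49 or below. A lung sample (saline 9:00 replicate 4) and a spleen sample (131I 12:00 replicate 1) held the kidney genes Umod, Slc12a1, Slc12a3 and Kcnj1, with Umod at 14.29 and 14.58 against at most 5.16 and 4.95 in the other 21 samples of each tissue, and 19 and 21 of 23 proximal tubule markers were detected there. In the lung sample the surfactant gene Sftpc lay at 14.16, within the range of the other lung samples (13.74 to 14.56), and in the spleen sample the B cell gene Cd79a lay at 9.73, below the other spleen samples (10.91 to 12.49). The samples labelled thyroid held none of the follicular cell markers Tg, Pax8, Iyd and Slc26a4 above background on any of 23 arrays, while the Iyd probe and 1 of the 2 Pax8 probes were detected on all 22 cortex arrays. Tshr was detected on 17 of the 23 by 1 of its 2 probes and on 7 by the other. Slc34a1 was detected on all 22 cortex arrays and Aqp2 and Aqp4 on all 23 medulla arrays, while Kap was detected on 21 of the 22, and Cldn11 and Slc14a1 on 19 and 16 of the 23. The markers checked in lungs, liver and spleen were detected on every array.

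The sequence just before an annotated start was searched for 6 of the 8 genes in the RefSeq promoter windows of build GRCm38.p6. It is shown for Umod of the thick limb, Slc12a3 of the distal convoluted tubule and Scnn1b of the sodium channel. Umod lies at chr7:119462708-119479262 on the minus strand, Slc12a3 at chr8:94329109-94366222 and Scnn1b at chr7:121865038-121918728, both on the plus strand. Each window shown ends at the base before the start of the annotated gene, so that it holds no exon of the gene, and is written 5′ to 3′ along the gene's strand.
Umod, chr7:119479263-119479512, minus strand: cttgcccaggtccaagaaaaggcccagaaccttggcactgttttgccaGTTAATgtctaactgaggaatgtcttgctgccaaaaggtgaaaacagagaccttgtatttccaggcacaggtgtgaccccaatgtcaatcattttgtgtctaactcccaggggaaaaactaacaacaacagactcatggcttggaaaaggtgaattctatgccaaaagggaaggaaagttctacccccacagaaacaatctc
Slc12a3, chr8:94328958-94329108, plus strand: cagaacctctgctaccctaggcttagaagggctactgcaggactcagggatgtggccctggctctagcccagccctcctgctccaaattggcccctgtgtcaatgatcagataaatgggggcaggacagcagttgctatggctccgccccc
Scnn1b, chr7:121864788-121865037, plus strand: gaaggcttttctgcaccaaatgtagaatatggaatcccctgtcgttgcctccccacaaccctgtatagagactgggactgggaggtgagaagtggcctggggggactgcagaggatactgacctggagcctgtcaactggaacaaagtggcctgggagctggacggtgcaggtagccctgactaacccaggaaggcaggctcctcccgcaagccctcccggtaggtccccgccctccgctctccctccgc
Capitals mark the only match among 4 motifs searched on both strands, which do not overlap each other: GTTAAT (part of the HNF1 site), AGAACA (part of the steroid receptor element), CACGTG (the E-box bound by clock proteins) and TATAAA (the TATA box). GTTAAT occurred once in the Umod window and in 6.43% of all 32851 promoter windows cut to the same 250 bases. AGAACA occurred at 2 places in the Kcnj1 window, and 16.1% of the windows of that length hold it. The Kcnj1 window, chr9:32393735-32393984, lies inside the annotated gene (chr9:32372418-32399197) and may hold transcribed sequence. None of the 4 motifs occurred in the windows of Slc12a1, Slc12a3, Scnn1b and Scnn1g.

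Levels are log2 intensities. Cortex and medulla were compared on arrays quantile normalized over all 6 tissues together (the 6-tissue scale). Treatments and times within a tissue were compared on arrays normalized within that tissue, which is a different scale. Intensities of different probes are not compared with each other. Regulated transcripts are those with a Benjamini-Hochberg adjusted p below 0.01 in limma and a fold-change of at least 1.5.

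In saline-treated mice the transporters divided between cortex and medulla. The urea transporter gene Slc14a2 and the thick limb gene Slc12a1 were higher in the medulla, and the distal convoluted tubule gene Slc12a3 and all 3 ENaC subunits were higher in the cortex. By their standing probes 6 of the 8 genes were called, 4 higher and 2 lower in cortex, and 15 of their 17 probes, where 11.3% of all 13776 probes tested were called (5.19% higher and 6.07% lower in cortex).

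The largest difference among the 8 was that of Slc14a2. In saline medulla it lay at 10.63, 11.23 and 10.94 at 9:00, at 9.93, 11.47 and 10.73 at 12:00 and at 10.22, 9.78 and 10.19 at 15:00. In saline cortex it was not detected in 9 of 10 samples. Medulla exceeded these 9 by at least 37.6-fold, set against the lowest level that was detectable on their arrays, and the fitted cortex-minus-medulla difference over all 10 was -5.79 (SE 0.430, adjusted p = 7.3e-13). Without the cortex sample that held Slc14a2 it was -6.21 (adjusted p = 2.3e-18). With intensities left uncorrected for background the difference was smaller, at -3.74, and called. That same sample had the lowest Scnn1b and Slc12a3 and the highest Umod and Slc12a1 of the saline cortex. Its 16 measured papilla and urothelium markers averaged 7.81 on the cortex scale, against 6.53 to 7.30 in the other saline samples. With 131I, Slc14a2 was detected in the cortex of 2 samples. It lay at 6.40 in 12:00 replicate 4, whose papilla and urothelium level of 7.85 was the highest of the cortex, and at 5.97 in 9:00 replicate 4, whose level of 7.04 lay within the range of the other samples. The part of these markers in the cortex levels of Slc14a2 was not tested. The other 2 probes of Slc14a2 gave smaller differences with saline, -1.83 (ILMN_3128363, 3.55-fold) and -1.82 (ILMN_2694440, 3.52-fold), both called. They were detected on 1 and 0 of 22 cortex arrays and on 15 and 11 of 23 medulla arrays.

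Slc12a1 in the saline cortex ranged from 11.50 to 13.42 with a median of 12.40, and in the medulla from 13.39 to 14.25 with a median of 13.79. The ranges met only through the same cortex sample. The fitted difference was -1.42 (SE 0.154, adjusted p = 2.3e-09), or 2.67-fold higher in medulla, and its 3 other probes gave -1.60 to -1.87, all called. Umod, which comes from the same segment, lay between 13.85 and 14.65 in cortex and between 14.53 and 14.73 in medulla, a difference of -0.45 (adjusted p = 5.6e-05) whose 1.36-fold stayed below the threshold of 1.5, whereas its second probe was called at 1.72-fold, a call lost with median scaling (-0.56). The standing probe of Umod lies at the bright end of the scale. Some samples share 1 value there (14.61 in saline medulla 9:00 replicates 1 and 3), which quantile normalization gives to probes of equal rank. Whether this narrowed the differences of Umod was not tested. Kcnj1, which both the thick limb and the collecting duct use, behaved like Umod. Its standing probe was 1.32-fold higher in medulla (-0.40, adjusted p = 0.00997) and not called, and its second probe, detected on 14 of 23 medulla arrays and on no cortex array, was called, though not with uncorrected or the deposited normalized intensities (-0.32).

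Slc12a3 in the saline cortex ranged from 11.63 to 12.93 and in the medulla from 8.90 to 11.29, with medians of 12.18 and 10.47. No medulla sample reached the lowest cortex sample. The difference was 1.90 (SE 0.185, adjusted p = 2.2e-10), or 3.73-fold, and the other 2 probes were called at 2.33-fold and 2.42-fold. The probe at 2.33-fold was detected on 7 of 23 medulla arrays, and its call was lost with uncorrected or the deposited normalized intensities (0.44). The probe at 2.42-fold was detected on every array of all 6 tissues, unlike the other probes of the gene. Of the ENaC subunits Scnn1b was 2.35-fold higher in cortex (8.75 to 10.03 against 7.52 to 8.66), Scnn1a 1.93-fold (8.94 to 9.81 against 7.92 to 8.71) and Scnn1g 1.83-fold (9.79 to 10.64 against 9.00 to 9.81). Cortex and medulla did not overlap for Scnn1a and Scnn1b, and for Scnn1g they overlapped by the lowest cortex and the highest medulla sample.

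**Figure D1:**
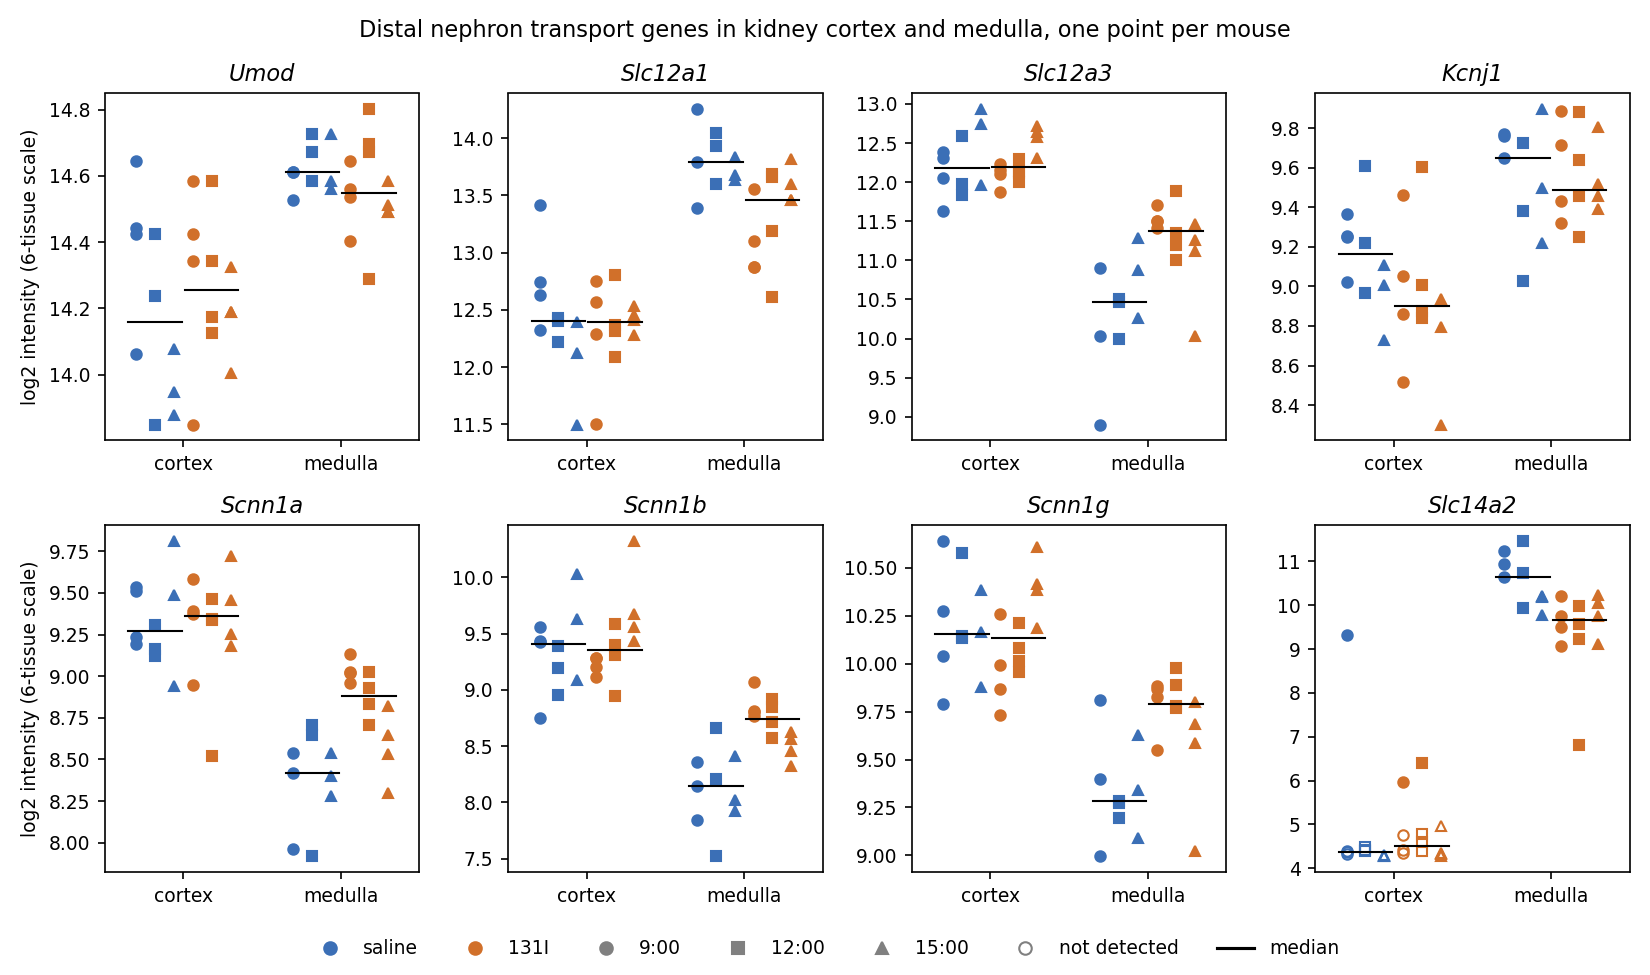
Levels of the 8 genes (log2 intensity of the standing probe, 6-tissue scale) in each cortex and medulla sample, saline in blue and 131I in orange, circles for 9:00, squares for 12:00 and triangles for 15:00, open where not detected, with lines at the medians. Slc14a2 is open in 9 of 10 saline cortex samples, the exception lying at 9.33, and Slc12a3 of the medulla has a median of 10.47 with saline and 11.38 with 131I.

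Genes that work beside these transporters were split between cortex and medulla in the same way for some segments and not for others. Of 19 other thick limb genes tested, 10 were lower in cortex and none higher (median difference -0.72, over all probes tested 0.02). The 3 with the smallest p were Nccrp1 (-5.39), the prostaglandin E2 receptor gene Ptger3 (-1.72) and Ppp1r1b (-2.67), which encodes a phosphatase inhibitor. Of 18 genes of the distal convoluted and connecting tubule, 7 were higher in cortex and 2 lower (median 0.29). By smallest p the first was Ppp1r1b, which stands in both lists and was lower in cortex (-2.67). Sgms2 (1.16) and Wnk1 (1.06), whose kidney kinase regulates NCC, came next and were higher. Among 22 regulators of ENaC and principal cell genes none was higher in cortex and 10 were lower (median -0.36), opposite to the ENaC subunits themselves. They included Elf5 (-3.21), a transcription factor of collecting duct cells, the FXYD subunit Fxyd4 (-2.39) and the water channel Aqp4 (-4.54). The inner medullary urea and osmolyte genes went with Slc14a2, as 10 of 15 were lower in cortex and none higher (median -0.79), with the small heat shock protein gene Cryab (-4.20), the betaine transporter Slc6a12 (-4.38) and the urea transporter Slc14a1 (-1.66). Beside these, 13 of 21 proximal tubule markers were higher in cortex and 14 of 19 papilla and urothelium markers lower, and the part of either in the transporter levels was not tested.

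With 131I the order between cortex and medulla was the same for each of the 8 genes, and 5 were called (12 of 17 probes, where 5.64% of all probes were called, 1.44% higher and 4.2% lower in cortex). Slc12a3 (0.98) and Scnn1b (0.72) were higher in cortex, and Slc12a1 (-0.96), Kcnj1 (-0.63) and Slc14a2 (-4.64) were lower. The call of Kcnj1 (1.55-fold) ended without cortex 131I 9:00 replicate 4 or 15:00 replicate 4, and with uncorrected or the deposited normalized intensities (-0.54). On these scales Slc14a2 differed by -2.79 and was called. The second Slc14a2 probe (ILMN_3128363) was called at -0.72, a call lost on these scales. The third (ILMN_2694440) was not called (-0.35, adjusted p = 0.377). Scnn1a (0.47, 1.39-fold), Scnn1g (0.42, 1.34-fold) and Umod (-0.30, 1.23-fold) passed the adjusted p but not the fold threshold. The medulla medians with 131I were 11.38 for Slc12a3, 8.88 for Scnn1a, 8.74 for Scnn1b and 9.79 for Scnn1g, against 10.47, 8.42, 8.15 and 9.28 with saline, while the cortex medians of these genes were 12.20, 9.36, 9.35 and 10.13 with 131I and 12.18, 9.27, 9.41 and 10.15 with saline.

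The difference between both treatments in the cortex-minus-medulla contrast was tested directly. By the standing probes no gene of the 8 was called, and of 17 probes 1 was called and 11 had an unadjusted p below 0.05, as did 19.9% of all probes (0.973% of all probes were called, 0.668% in the direction of the called probe). The called probe was the second probe of Slc14a2 (ILMN_3128363), whose contrast was -1.83 with saline and -0.72 with 131I, a difference of 1.11 (SE 0.226, adjusted p = 0.00358). It was detected on 1 of 22 cortex and 15 of 23 medulla arrays, so that its cortex values were at background on all but 1 array, and the call was lost with uncorrected or the deposited normalized intensities (0.45). With 131I the contrast of Slc12a3 differed from that with saline by -0.92 (SE 0.247, adjusted p = 0.0259), for Scnn1b by -0.51 (adjusted p = 0.0812), for Scnn1a by -0.48 (adjusted p = 0.0763) and for Scnn1g by -0.45 (adjusted p = 0.0663). Slc12a3 was called without medulla saline 9:00 replicate 1 (-1.08, adjusted p = 0.00313) or without medulla 131I 15:00 replicate 3 (-1.02, adjusted p = 0.00704). Of 19 papilla and urothelium markers 6 were called in this test, all with a smaller contrast with 131I (median 1.26), and their part in the values of the transporters was not tested.

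**Figure D2:**
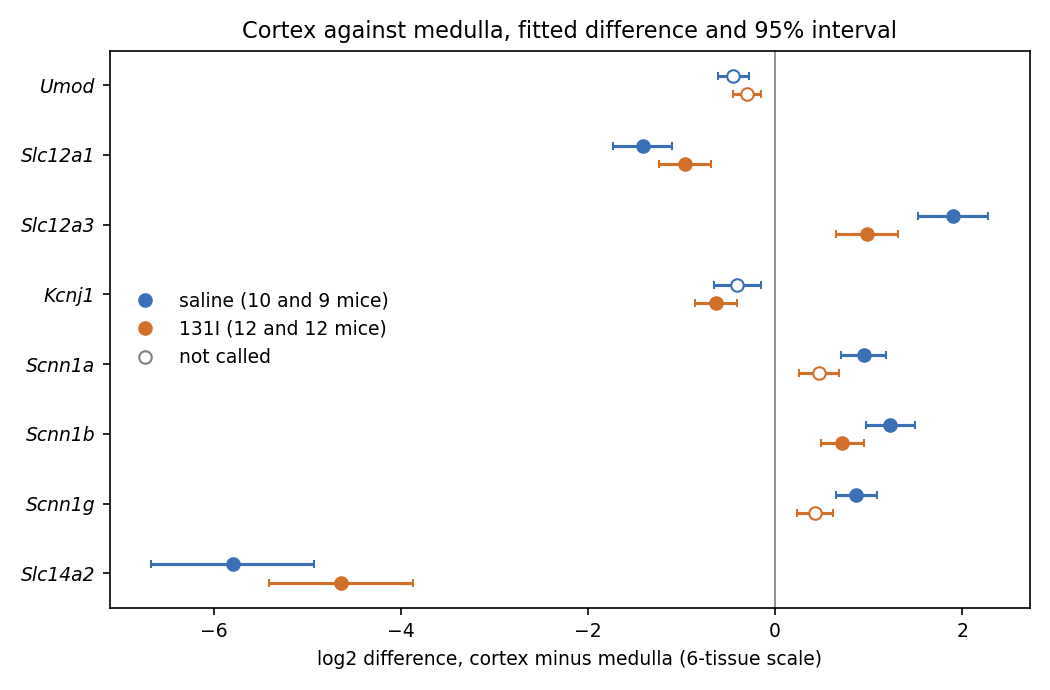
Fitted log2 difference, cortex minus medulla, of the 8 genes with 95% intervals on the 6-tissue scale, for saline (10 and 9 mice) and 131I (12 and 12 mice), filled where called. Slc14a2 lies furthest left at -5.79 and -4.64, and Slc12a3 furthest right at 1.90 and 0.98.

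In the medulla itself, 131I was compared with saline at each time of injection. At 9:00 none of the 17 probes was called (0% of 13247 probes were), although 12 of the 17 had an unadjusted p below 0.05, as did 18.3% of all probes. The values were higher with 131I for the cotransporter of the distal convoluted tubule and the sodium channel and lower for the cotransporter of the thick limb and the urea transporter. Slc12a3 lay at 11.70, 11.71, 11.89 and 11.61 with 131I and at 11.12, 9.15 and 10.26 with saline on the medulla scale. Every 131I sample was above every saline sample, and the difference of 1.55 (SE 0.346, 2.93-fold) had an adjusted p of 0.0282. The share of all probes with such full separation is not given, here or in the other comparisons.

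ENaC subunit levels at 9:00 followed the same order. Scnn1a lay at 9.21, 9.28, 9.38 and 9.28 with 131I against 8.79, 8.21 and 8.67 with saline (0.73, SE 0.169, adjusted p = 0.0317). Scnn1b lay at 9.32, 9.07, 9.02 and 9.06 against 8.61, 8.09 and 8.40 (0.75, SE 0.191, adjusted p = 0.0430), again without overlap, while for Scnn1g (0.37, adjusted p = 0.251) the saline sample with the highest level lay within the range of 131I. Slc12a1 at 9:00 was 12.997, 13.003, 13.61 and 13.20 with 131I and 13.47, 14.20 and 13.79 with saline (-0.62, adjusted p = 0.0850). Slc14a2 was 9.33, 9.75, 10.43 and 10.001 against 10.86, 11.44 and 11.16 (-1.27, SE 0.494, adjusted p = 0.168), with all 131I samples below all saline samples. None of these passed the threshold with all samples. Without saline replicate 1, the saline sample with the highest Slc12a3, Slc12a3 was called at 2.02 (adjusted p = 0.00366).

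At 12:00 the medulla held 2 called probes of the 17, both lower with 131I, where 4.25% of all probes were called, 2.28% lower and 1.97% higher, and none of the 8 genes was called by its standing probe. An unadjusted p below 0.05 was found for 15 of the 17 and for 29.2% of all probes. The second probe of Slc14a2 (ILMN_3128363) lay at 4.87, 4.78, 5.28 and 4.49 with 131I, detected in none of them, and at 6.64, 7.33 and 6.75 with saline. Saline exceeded 131I by at least 2.71-fold (fitted difference -2.05, SE 0.371, adjusted p = 0.00181). With the deposited normalized intensities the difference was -0.72, and called. The standing probe of Slc14a2 gave 9.49, 9.82, 10.22 and 7.09 against 10.17, 11.67 and 10.96, which overlapped (-1.78, SE 0.494, adjusted p = 0.0207). The other called probe was one of Slc12a1 (ILMN_3048630), at 8.66, 8.99, 8.73 and 7.95 against 9.93, 9.38 and 10.25 (-1.27, SE 0.268, adjusted p = 0.00448), whereas the standing probe of Slc12a1 differed by -0.49 (adjusted p = 0.0977). Replicate 4 of the 131I group was the lowest of its group for each of these 4 probes. Without it only the Slc14a2 probe was called (1 of 17), and without saline replicate 3 neither was (0 of 17, adjusted p of 0.0101 and 0.0371). Without saline replicate 1 the Slc12a1 probe was no longer called (adjusted p = 0.0184) and the standing probe of Scnn1b was (0.90, adjusted p = 0.00568).

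The salt transporters of the distal convoluted tubule and collecting duct had higher values at 12:00, too, without a call. Slc12a3 lay at 11.56, 11.22, 11.40 and 12.06 with 131I and at 10.74, 10.23 and 10.70 with saline (1.002, SE 0.346, adjusted p = 0.0565). Scnn1g lay at 10.13, 10.01, 10.02 and 10.21 against 9.53, 9.54 and 9.45 (0.59, SE 0.172, adjusted p = 0.0265), without overlap. Scnn1b differed by 0.63 (adjusted p = 0.0311) and Scnn1a by 0.45 (adjusted p = 0.0763). The standing probes of Umod (-0.05) and Kcnj1 (0.18) showed no difference beyond their error at 12:00, while their second probes gave -0.34 (adjusted p = 0.0476) and -0.60 (adjusted p = 0.0824). At 15:00 none of the 17 probes was called and none had an unadjusted p below 0.05 (0% of all probes were called). Slc12a3 then differed by 0.16, with 131I at 11.47, 11.33, 10.27 and 11.67 and saline at 10.49, 11.50 and 11.09, and Slc14a2 by -0.27. Whether the response to 131I differed among the 3 times was tested by an interaction term, which called none of the 17 probes (0% of all). The smallest adjusted p was 0.207, for the second probe of Slc14a2.

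**Figure D3:**
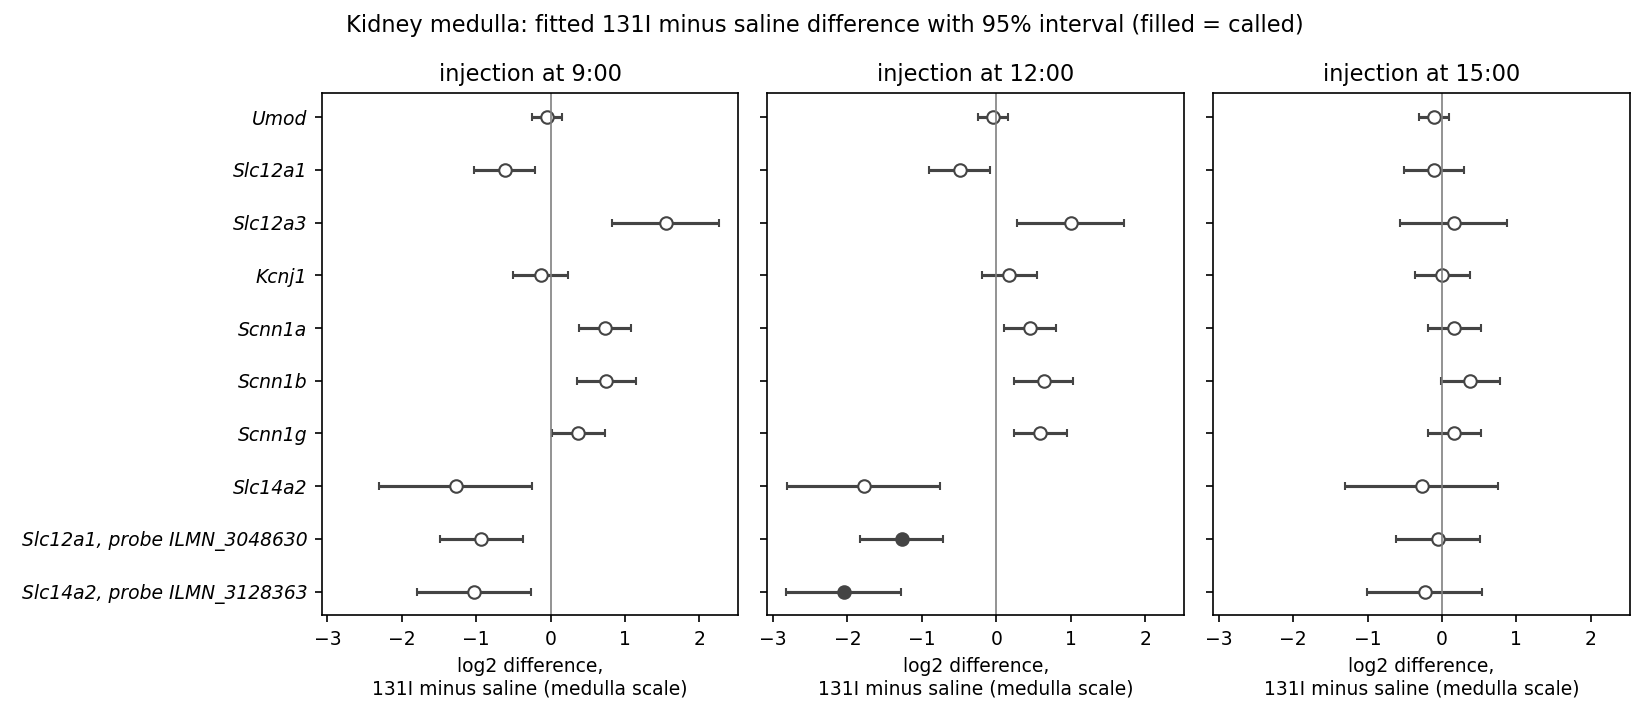
Fitted log2 difference, 131I minus saline, in the kidney medulla with 95% intervals on the medulla scale, for the standing probe of each of the 8 genes and the 2 other probes called at 12:00, filled where called. Slc12a3 moves from 1.55 at 9:00 to 0.16 at 15:00, and the filled points are at -1.27 and -2.05 at 12:00.

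Markers of other parts of the kidney moved with these groups of medulla samples. In bulk tissue, fewer cells of a type and less RNA per cell cannot be told apart. Of 20 papilla and urothelium markers 19 were measured (Krt5 was detected on no medulla array), and their mean log2 level at 12:00 lay between 6.59 and 7.25 with 131I and between 8.92 and 9.32 with saline. Their summed intensity ranged from 20422 to 23598 with 131I and from 33095 to 36241 with saline, and 12 of the 19 fell (median -2.40). The 21 measured proximal tubule markers moved the other way, from 9.64 to 9.93 with saline to 10.54 to 10.72 with 131I, and 5 of them rose (median 0.80). At 9:00, where none of these markers was called, the papilla list lay at 7.03 to 8.43 with 131I and 8.48 to 9.58 with saline. At 15:00 the ranges overlapped, 6.75 to 8.45 against 8.02 to 8.60. The part of these markers in the levels of Slc14a2, Slc12a3 and the ENaC subunits was not tested. The papilla and urothelium list held Cldn11, which the paper reports as falling in the medulla. The list was chosen with earlier results of these data known. Its counts between 131I and saline, here and in the cortex-minus-medulla contrast, are therefore not independent of that choice.

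Other genes of the same segments were called at 12:00 in the medulla in small numbers, beside 1.97% of all probes higher and 2.28% lower with 131I. Of 17 distal convoluted and connecting tubule genes 3 rose with 131I, namely Sgms2 (0.74), the sodium-calcium exchanger Slc8a1 (1.38) and Wnk1 (0.63), and none fell. Among the 22 ENaC regulators and principal cell genes Prss8 (0.66), a protease that activates ENaC, rose, and 3 fell, among them Elf5 (-2.37) and Gata3 (-1.20), a transcription factor of the collecting duct. Of 15 urea and osmolyte genes 2 fell, Cryab (-2.15) and Nfat5 (-0.74), the transcription factor that answers high tonicity (median of the list -0.47, over all probes -0.02). The potassium channel gene Kcnj16 (0.65) rose and the homeobox gene Irx2 (-0.77) fell among 19 thick limb genes, and none of the 13 clock genes tested was called.

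Of the transporters, only Slc12a1, Slc12a3, Scnn1g and Slc14a2 were correlated within groups of medulla samples, in 6 pairs. Some of these genes varied together. Over 21 samples, as deviations from their group means, Slc12a3 and Scnn1g had r = 0.85 (permutation p = 0.00307, adjusted over 6 pairs p = 0.0149) and rho = 0.71 (adjusted permutation p = 0.0115), and r = 0.72 without the 2 samples farthest from the median. Slc12a1 and Slc14a2 had r = 0.72 (permutation p = 0.00807, adjusted p = 0.0161) and rho = 0.68, and r = 0.51 without such 2 samples. Slc14a2 ran against Slc12a3 (r = -0.47, permutation p = 0.00497, adjusted p = 0.0149, rho = -0.62, r = -0.53 without 2) and against Scnn1g (r = -0.33, permutation p = 0.0241, adjusted p = 0.0362, rho = -0.52, r = -0.34 without 2). Slc12a1 with Slc12a3 (r = -0.41) and with Scnn1g (r = -0.36) did not pass (adjusted permutation p = 0.117 for both). All values of a sample come from 1 piece of tissue, and the 6 pairs are not independent of each other.

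Genes whose level ran most like that of a transporter over the samples are given as a description. Over the 21 medulla samples Slc12a3 was followed most closely by Pvalb (r = 0.97), the parvalbumin of the distal convoluted tubule, Tmem52b (0.96) and Ugt1a10 (0.94), and Slc14a2 by Angpt2 (0.94), Ranbp3l (0.92) and Sim2 (0.91). Scnn1b was followed by Aprt (0.94), Guca2a (0.93) and Slc22a6 (0.92), the latter an anion transporter of the proximal tubule, and Umod by Rpl36a (0.69), Oxld1 (0.67) and Sf3b5 (0.66). Over the 22 cortex samples the closest were Ppp1r1b (0.92) to Umod, Enpp6 (0.89) to Slc12a3 and Wnk1 (0.88) to Scnn1b. Slc14a2 was not detected throughout the cortex and was left out there.

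In the kidney cortex, no probe of the 8 genes was called between 131I and saline, of 14 tested at each time, where 0%, 0.141% and 0% of 12776 probes were called for the successive times. An unadjusted p below 0.05 in limma was found for 1 of the 14 at 9:00 (3.87% of all probes) and for none at 12:00 or 15:00. Between times of injection none was called either, in the cortex or in the medulla, within saline or within 131I, beside few calls over all probes. Of all cortex probes 0.0783% were called for 12:00 against 9:00, 0.047% for 15:00 against 9:00 and 0.196% for 15:00 against 12:00 with saline, and 0%, 0.0704% and 0% with 131I. Of all medulla probes these shares were 0.0151%, 0.159% and 0% with saline and 0%, 0.159% and 0% with 131I. In limma at most 6 of the 17 medulla probes had an unadjusted p below 0.05, for 15:00 against 9:00 with 131I (11.7% of all probes). In the cortex most were found for 15:00 against 9:00 with saline, at 9 of 14 probes (9.92% of all probes). Slc12a1 fell short of a call at -0.74 (adjusted p = 0.268), with 12.66, 12.77, 12.36 and 13.40 at 9:00 and 11.56, 12.43 and 12.17 at 15:00 on the cortex scale, and the highest value was that of the sample that held Slc14a2. Umod differed by -0.46 (adjusted p = 0.362) and Slc12a3 by 0.45 (adjusted p = 0.447). With 131I Slc12a3 again had higher values at 15:00 (12.61, 12.75, 12.35 and 12.67) than at 9:00 (11.94, 12.27, 12.20 and 12.14), a difference of 0.45 (adjusted p = 0.232), beside Scnn1b at 0.53 (adjusted p = 0.218) and Scnn1g at 0.44 (adjusted p = 0.185). The interaction of 131I and time called none of the 14 probes in the cortex (0.00783% of all probes).

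Outside the kidney most of these genes were not detected, apart from the ENaC subunits. Umod, Slc12a1 and Kcnj1 were not detected in any liver, spleen or thyroid sample with saline, nor were Slc14a2 and the standing probe of Slc12a3. Saline cortex exceeded saline liver by at least 368-fold for Umod, 106-fold for Slc12a1, 97.2-fold for Slc12a3 and 11.2-fold for Kcnj1 (34.7% of all probes were called between these tissues), and saline medulla exceeded it by at least 501-fold, 282-fold, 26.0-fold and 14.8-fold. Slc14a2 in the medulla was at least 30.2-fold above liver. Another probe of Slc12a3 (ILMN_2797239) was detected on every array of all 6 tissues, with medians of 7.97 in lungs to 10.67 in cortex, unlike the other 2 probes of that gene.

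ENaC subunits were highest in the lungs, where the channel clears fluid from the airspaces. With saline the lungs held Scnn1a at 10.91 ± 0.429 (SD, n = 10), Scnn1b at 10.76 ± 0.462 and Scnn1g at 11.59 ± 0.352, and 11.01, 10.87 and 11.67 without the sample that held kidney genes (n = 9). Cortex was lower than lungs by -1.59, -1.41 and -1.41 (3.01-fold, 2.65-fold and 2.66-fold, adjusted p of 4.7e-05 or below), all called, where 41% of 17130 probes were called, and medulla was lower than lungs by 5.80-fold, 6.22-fold and 4.85-fold (38.4% of probes called). Leaving out the lung and the spleen sample with kidney genes moved the cortex differences to -1.69, -1.52 and -1.46. Next in order, by the saline means over the 3 times, came cortex and medulla. In the fit over 6 tissues, in which the spread of all tissues is pooled and 7.93% of probes were called between cortex and medulla, Scnn1b separated them (adjusted p = 0.00236) and Scnn1a (adjusted p = 0.0121) and Scnn1g (adjusted p = 0.0206) did not, while without those 2 samples all 3 did (adjusted p of 0.00298 or below). The standing probe of Slc12a1 was not called over all samples in the fit over 6 tissues (-1.42, adjusted p = 0.0431), whereas its 3 other probes were. Without the lung and the spleen sample with kidney genes it was called too (-1.42, adjusted p = 9.7e-21).

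The liver held the alpha subunit alone. Scnn1a was detected in all 22 liver samples (7.43 ± 0.438 with saline, n = 10), below the medulla by 1.90-fold (adjusted p = 0.00396, where 37.7% of probes were called), and Scnn1b and Scnn1g in none. In the spleen no subunit was detected with saline, and with 131I Scnn1b and Scnn1g were detected only in the sample that held kidney genes. In the thyroid samples each subunit was detected in 5 of 10 saline samples. The members tested in lungs (4 probes), liver (2) and spleen (1) showed no call between 131I and saline at any time, where none of the probes of lungs and spleen and 0%, 1.45% and 0.0259% of those of liver were called. In limma 1 lung probe at 9:00 (Scnn1g, 0.54) and 1 liver probe at 12:00 had an unadjusted p below 0.05.

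**Figure D4:**
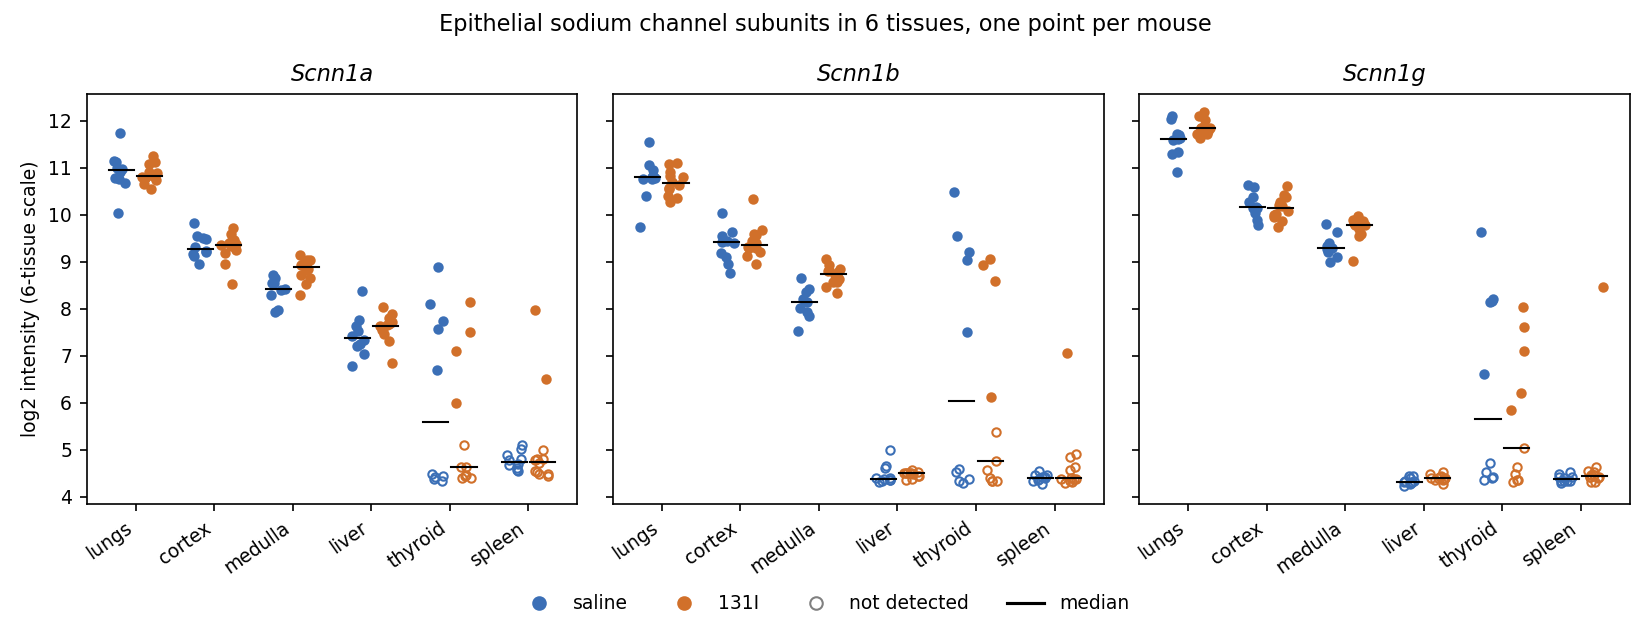
Levels of the 3 ENaC subunits (log2 intensity, 6-tissue scale) in each sample of the 6 tissues, saline in blue and 131I in orange, open where not detected, with lines at the medians. Lungs lie highest, with saline means of 10.91, 10.76 and 11.59, and the thyroid samples spread from background to 10.48 for Scnn1b.

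The samples labelled thyroid were the only ones of the 6 tissues in which standing probes of these genes were called between 131I and saline. At 9:00 all 3 ENaC subunits were lower with 131I, where 12.3% of probes were called (8.05% lower). On the thyroid scale Scnn1b lay at 4.54, 4.87, 4.27 and 4.31 with 131I, not detected in any, and at 8.39, 8.21, 9.82 and 8.77 with saline. Saline exceeded 131I by at least 13.9-fold (fitted difference -4.30, SE 0.843, adjusted p = 0.00293). Scnn1g lay at 4.38, 5.46, 4.68 and 4.24 against 7.30, 7.37, 8.84 and 7.32 (-3.02, SE 0.603, adjusted p = 0.00305), and Scnn1a at 4.34, 5.30, 4.36 and 4.48 against 6.89, 6.73, 8.07 and 7.27 (-2.62, SE 0.589, adjusted p = 0.00439). With intensities left uncorrected for background the 3 differences were -2.40, -1.50 and -1.18, all called. Of the 131I samples only replicate 2 had a detected subunit, Scnn1a and Scnn1g. Without saline 9:00 replicate 3 none of the 3 was called, and without 131I 9:00 replicate 4 only Scnn1b was. Scnn1a was also no longer called without 131I replicate 3 (adjusted p = 0.0133) or saline replicate 4 (adjusted p = 0.0112).

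The order was not that of treatment at the other times. With saline, samples of 15:00 were lower than those of 9:00 by at least 12.1-fold for Scnn1b (4.27, 4.30 and 4.22 at 15:00, adjusted p = 0.00412), 5.67-fold for Scnn1g (adjusted p = 0.00412) and 4.11-fold for Scnn1a (adjusted p = 0.00475), all called, where 11.5% of probes were called (6.53% lower). With uncorrected intensities the 3 differences were -2.52, -1.57 and -1.31, all called. These calls also ended without saline 9:00 replicate 3 or any single sample of 15:00, and that of Scnn1a without saline 9:00 replicate 4 (adjusted p = 0.0105). Scnn1b in the remaining groups was 5.42, 7.75 and 4.43 with 131I at 12:00, 4.44, 4.41 and 6.66 with saline at 12:00, and 8.25, 4.26, 8.10 and 4.27 with 131I at 15:00. Samples of 1 group thus stood both at background and well above it. With saline 12:00 against 9:00 none was called (adjusted p of 0.0134 to 0.0192, 0.412% of all probes called). The interaction of 131I and time did not reach the threshold (0% of all probes, adjusted p = 0.0103 for Scnn1b and Scnn1g, 0.0128 for Scnn1a).

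Salivary gland markers split the thyroid samples in the same places. Their mean log2 level over 14 measured of 17 markers on the array (Smr2 and Smr3a were detected on no array) was 4.91 to 5.20 with 131I at 9:00 and 12.23 to 12.71 with saline at 9:00, and their summed intensity 1327 to 1837 against 180225 to 203204. Over all 21 samples, the 8 in which all 3 subunits were detected had a salivary level of 11.75 to 12.71, the 2 with 2 subunits detected had 5.20 and 11.17, and the 11 in which none was detected had 4.85 to 9.56. Skeletal muscle markers (17 measured) averaged 12.83, 12.93 and 13.08 in 3 of the 4 131I samples of 9:00 and 4.86 to 5.32 in the saline samples of 9:00. At 9:00 12 of 14 salivary markers fell with 131I (median -9.20) and 7 of 17 muscle markers rose (median 6.24). Treatment and the tissue content of these samples cannot be told apart at 9:00, and the part of either in the ENaC levels was not tested. The salivary list held Egf and genes of the Klk1b subfamily, and the muscle list Atp2a1. The paper reports Egf, Klk1b genes and Atp2a1 as regulated in the thyroid. Both lists were chosen with earlier results of these data known. The counts of salivary and muscle markers that fell or rose are therefore not independent of that choice.

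**Figure D5:**
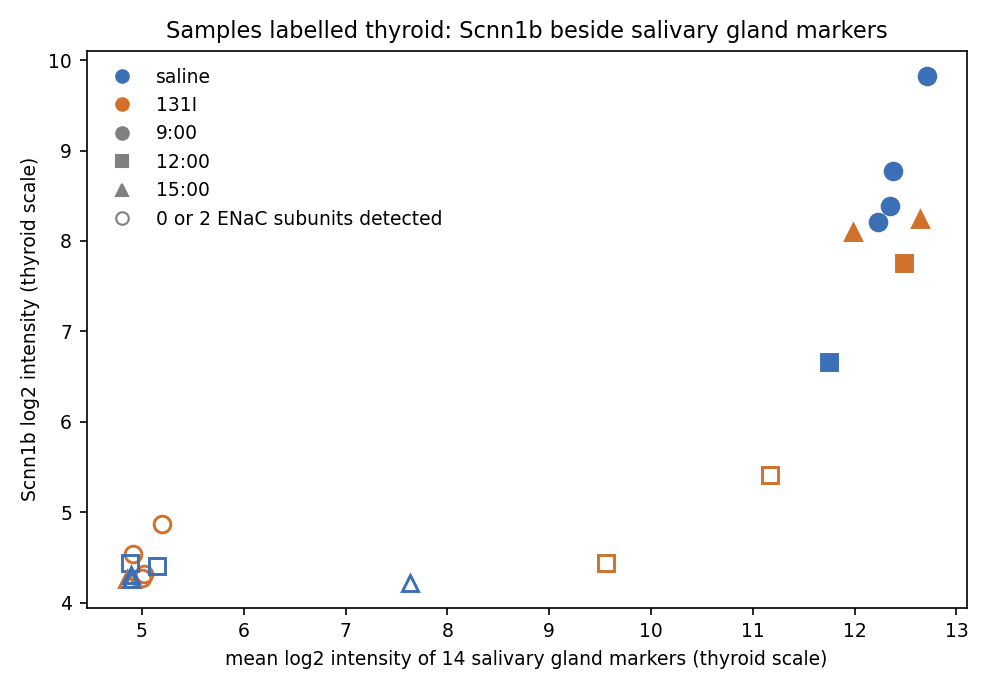
Scnn1b (log2 intensity, thyroid scale) against the mean log2 intensity of 14 salivary gland markers in the 21 samples labelled thyroid, saline in blue and 131I in orange, circles for 9:00, squares for 12:00 and triangles for 15:00, filled where all 3 ENaC subunits were detected. The 8 filled points lie at a salivary level of 11.75 or above, and the 131I samples of 9:00 lie at 5.20 or below.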

How the data were processed

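Total RNA of 6 tissues was hybridised to Illumina MouseRef-8 arrays. The deposited intensity values are averaged bead signals per probe, beside a detection p-value from the negative controls. The authors' normalized table, quantile normalized over all arrays on the linear intensity scale, was used as an alternative. Intensities were background corrected from the detection p-values (offset 16), quantile normalized within a tissue or over 6 tissues and taken to log2, which the deposited values are not. Repeat arrays of a sample were averaged. Probes with a detection p below 0.01 on at least 3 arrays were tested with limma 3.58.1 in R 4.3.3 (empirical Bayes with trend), all 6 groups of a tissue in 1 fit, and called at a Benjamini-Hochberg adjusted p below 0.01 and a fold-change of 1.5. The fit was tested on simulated data. Probe genes came from the platform annotation (23978 probes with 1 gene, 1719 unnamed).

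A bound ("at least") sets the brighter mean against the higher of the dim probe and the lowest detected signal of each array. The members and lists were chosen with earlier results of these data known. The probe with the highest mean over the kidney stood for its gene. Of each list the counts and up to 3 genes with the smallest p were named, and for Umod, Slc12a3, Scnn1b and Slc14a2 the 3 genes with the highest Pearson r. Alternatives were the background correction, scaling, detection filter, deposited normalized values, repeat arrays, replicate block, fitted groups and leaving out each sample.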

Additional observations from a re-analysis of the deposited data

Results flagged for a closer look

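In 7 of 81 groups of 4 samples that were checked, 1 sample lay far from the other 3 for a transporter, where chance alone sets apart about 1 in 20. The gap of that sample to its nearest neighbour, as a share of the group's range, is given for each on the scale of its tissue. In the cortex of saline-treated mice at 9:00 replicate 4 had the highest Slc14a2, at 9.38 with the next at 4.37 (share 0.988), and the lowest Scnn1b, at 8.80 with the next at 9.48 (share 0.837). With 131I, cortex replicate 4 of 12:00 had the lowest Scnn1a, at 8.56 with the next at 9.39 (share 0.861), and cortex replicate 1 of 15:00 the highest Slc14a2, at 4.93 with the next at 4.33 (share 0.906). Slc14a2 was not detected in any 131I cortex sample of 15:00, so that these values were at background. In the medulla replicate 1 of 131I at 9:00 had the highest Scnn1b, at 9.32 with the next at 9.07 (share 0.848). In the thyroid samples replicate 2 of 131I at 9:00 had the highest Scnn1a, at 5.30 with the next at 4.48 (share 0.859), and replicate 3 of saline at 9:00 the highest Scnn1g, at 8.84 with the next at 7.37 (share 0.954). Scnn1a was not detected in the other 131I samples of 9:00.

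In the test of whether the cortex-minus-medulla difference depended on treatment, 11 of the 17 probes had an unadjusted p below 0.05 in limma. The same held for 19.9% of all probes. Of the 17, only the second probe of Slc14a2 (ILMN_3128363) was called, by 1.11 on the log2 scale (limma, adjusted p = 0.00358). It was detected on 1 of 22 cortex and 15 of 23 medulla arrays, so that its cortex values were at background on all but 1 array, and with uncorrected or the deposited normalized intensities the difference was 0.45 and not called.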

How the results depend on the processing

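Of 63 counts of called transporter genes, 59 were 0. Under the other settings or with 1 sample left out, 57 of the 63 did not move by over 1.5 times. Among those that moved were the thyroid counts above 0, for 131I at 9:00 and for saline 15:00 against 9:00. Each went from 3 to as low as 0 with 1 sample left out. No fold-change of a called probe changed direction. Of 36 such fold-changes 29 stayed called with no background step and 29 on the deposited normalized scale, 35 with median scaling, 36 without the detection filter and 36 without repeat arrays, all 28 between cortex and medulla with the kidney arrays normalized alone, and 646 of 675 with 1 sample left out. Slc12a3, Slc12a1, Scnn1b and Slc14a2 kept their calls between cortex and medulla by the standing probe in every setting of the fit over both tissues. In the fit over 6 tissues Slc12a1 was not called over all samples (adjusted p = 0.0431). It was called there without the lung and the spleen sample with kidney genes (adjusted p = 9.7e-21). Kcnj1 with 131I lost its call with raw intensities and with the deposited values, where its fold fell below the threshold. Fitting only the groups compared gave 2 called genes (Slc12a3 and Scnn1g) and 5 probes for 131I in the medulla at 12:00, against 0 and 2. The call of the second Slc14a2 probe in the difference between treatments was also lost with raw intensities and with the deposited values, where the difference was 0.45.

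Leaving out 1 sample gave 0 to 1 genes for 131I minus saline between cortex and medulla, 0 to 1 for 131I in the medulla at 9:00, 0 to 1 genes and 0 to 3 probes at 12:00, 0 to 3 for 131I in the thyroid samples at 9:00 and 0 to 3 for saline at 15:00 against 9:00. The dependence of the thyroid response on time, added after seeing the data, was called for 0 to 3 genes with 1 sample left out and for 2 without repeat arrays, against 0. The labels do not say that equal replicate numbers mark 1 animal. Equal numbers deviated together (r over 0.1) in 14 of 21 pairs of cortex and medulla samples. In 14 of the 21 the cortex sample was also most like the medulla sample of equal number. Among pairs of 131I and saline samples, which come from different mice, 19 of 59 deviated together. The main fits did not take equal numbers as pairs. With the replicate block all 8 called fold-changes within tissues and, as a random block, all 28 between cortex and medulla stayed called (consensus correlation 0.127), and 1 further Slc14a2 probe was called in the medulla at 12:00.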

Other observations

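Other parts of the kidney were read by the same arrays. Of 9 intercalated cell genes tested, 6 were higher in the cortex of saline-treated mice and none lower (median 0.84), and all 5 podocyte genes tested were higher (median 0.72). With 131I these counts were 2 of 9 and 1 of 5, where 5.19% of all probes were higher in cortex with saline and 1.44% with 131I. None of the 13 clock genes tested differed between cortex and medulla with either treatment by limma.

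In the test of whether the cortex-minus-medulla difference depended on treatment, Elf5, a transcription factor of the collecting duct, was called at 1.81 (adjusted p = 0.000877) and Wnk1, a kinase gene of the distal convoluted tubule, at -0.59 (adjusted p = 0.00522). A repeat array of the medulla sample 131I 9:00 replicate 3 correlated more closely with replicate 2 (r = 0.988) than with its own first array (r = 0.979) over the probes, and the counts of called folds were unchanged without repeat arrays.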
